A study of Mus musculus with 6 samples.

Results

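The genes examined were 9 members of the EGF ligand family, namely Egf, Tgfa, Hbegf, Areg, Ereg, Epgn, Btc, Nrg1 and Nrg4, chosen by symbol from the 35027 genes of the deposited table. They were compared between 2 genotypes of mouse thyroid tumor, in cells sorted for the Kate reporter, asking what mutant Braf adds in tumors that already express nuclear YAP. All tumors expressed YAPS127A, a constitutively nuclear mutant of the Hippo-regulated coactivator, from a tetO transgene under the doxycycline (dox)-dependent activator rtTA. The Cre that switched on rtTA and the red fluorescent Kate reporter was driven by a thyroid-specific promoter, so the gate marks cells in which that Cre had acted and does not by itself mark tumor cells. YAP tumors (n = 3 libraries, replicates 1, 2 and 3) were without mutant Braf. BrafYAP tumors (n = 3 libraries, replicates 1, 2 and 6) also carried mutant Braf, expressed from the endogenous gene. Dox chow was given from 4 weeks of age in either group per the labels, which give neither strain, sex nor batch. In the labels, 3 tumors were pooled for each YAP library but 1 tumor was used for each BrafYAP library, so pooling and genotype cannot be told apart. The study's methods instead give 1 tumor, from 1 mouse, as each replicate. For dox, those methods give 4 weeks, as the labels do, but the study's results place its start later. The labels were followed on both, and the disagreement was not settled. Nothing in the labels ties a library to a separate mouse, and p-values measure the spread between these libraries.

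EGF-family ligands are made as membrane-spanning precursors, and metalloproteases release the part that binds receptors of the ERBB family on the same or neighboring cells. EGF, TGF-alpha, amphiregulin (Areg) and epigen (Epgn) bind EGFR. HB-EGF, betacellulin (Btc) and epiregulin (Ereg) bind EGFR and ERBB4, whereas neuregulins bind ERBB3, ERBB4 or both. ERBB2 has no known ligand of its own and acts as the partner of the other receptors, and ERBB3 has little kinase activity and depends on its partner. Ligand-bound receptors signal to RAS, ERK and PI3-kinase, and EGF is a known mitogen of thyroid follicular cells in culture. Mutant BRAF signals to ERK without a receptor.

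The estimated reads behind the table ranged from 26.2 to 36.9 M per library. BrafYAP replicate 6 stood apart from the other libraries, and whether it is as its label says could not be settled from the values below, so values are given by library, and the main ones also without it. Its correlation with them was 0.732 to 0.836 (Pearson's r of log2 values across 16834 genes, which are not independent replicates), compared with 0.968 between BrafYAP replicates 1 and 2 and 0.908 to 0.938 between YAP libraries. Yap1, which the table does not split into endogenous gene and transgene, had 783, 781 and 907 scaled reads in YAP replicates 1, 2 and 3 and 1368, 1466 and 264 in BrafYAP replicates 1, 2 and 6, so replicate 6 was 5.19 to 5.56 times below the other BrafYAP libraries. Scaled reads are read numbers on the authors' scale between libraries, with the gene-length division undone. In bulk RNA, fewer cells of a type and less RNA per cell cannot be told apart. Markers were summed as TPM recomputed with the exonic length. Of the thyroid follicular markers, Pax8 was at 164, 169 and 219.5 in YAP replicates 1, 2 and 3 and 183, 109 and 75.9 in BrafYAP replicates 1, 2 and 6, but Tshr was at 0 in BrafYAP replicates 1 and 2. The 6 epithelial markers, led by Krt18, summed to 7071 to 21835 and 8903 to 21952. The 8 macrophage and myeloid markers, led by Lyz2, summed to 13973 to 46712 in YAP and 3666 to 13824 in BrafYAP libraries. Of the 8, 6 were lower in each BrafYAP library than in any YAP library, beside 17.1% of all genes on scaled reads. Among 7 mast cell and basophil markers Mcpt8 reached 1276 in BrafYAP replicate 6, where the list summed to 1277, against 22.7 and 26.4 in BrafYAP replicates 1 and 2 and 5.73 to 7.50 in YAP libraries, and Tpsb2 and Ms4a2 were at 0 throughout. Pth (637) and the salivary gene Dcpp1 (389) were also highest in BrafYAP replicate 6, but Pth was at 106 in YAP replicate 2 as well. Other genes of these lists were mixed. In replicate 6 Dcpp2 was at 78.6 but the parathyroid gene Gcm2 at 0.05, and salivary Muc19 and Smgc were at 0 throughout. The mast cell gene Kit was lower in BrafYAP (0.88 to 1.19) than in YAP libraries (4.08 to 7.20). Single high genes thus do not name a cell type, and the part of other cells in the ligand values was not tested.

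Of the 9 ligand genes, 4 lie in 1 cluster on chromosome 5 (mm10), which runs 375.531 kb from Epgn to Btc and holds no other protein-coding gene. Epgn (chr5:91027464-91035215), Ereg (chr5:91074622-91093646) and Areg (chr5:91139599-91148432) are on the plus strand, and Btc (chr5:91357261-91402994) is on the minus strand. Ereg and Areg are separated by 45.953 kb, Epgn and Ereg by 39.407 kb, and Areg and Btc by 208.829 kb. The upstream sequence of Areg and that of Epgn are shown because these cluster neighbors had the largest fold change of the 8 ligands tested and the lowest level of all 9. They are the 250 bases before the annotated start in RefSeq (GRCm38.p6, plus strand), at chr5:91139349-91139598 for Areg and chr5:91027267-91027516 for Epgn. Capitals mark the cAMP response element.
Areg: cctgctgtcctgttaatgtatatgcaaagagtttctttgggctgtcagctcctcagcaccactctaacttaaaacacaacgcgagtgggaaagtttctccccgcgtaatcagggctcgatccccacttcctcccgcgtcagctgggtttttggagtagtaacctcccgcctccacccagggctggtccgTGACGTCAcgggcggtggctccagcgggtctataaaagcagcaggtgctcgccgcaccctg
Epgn: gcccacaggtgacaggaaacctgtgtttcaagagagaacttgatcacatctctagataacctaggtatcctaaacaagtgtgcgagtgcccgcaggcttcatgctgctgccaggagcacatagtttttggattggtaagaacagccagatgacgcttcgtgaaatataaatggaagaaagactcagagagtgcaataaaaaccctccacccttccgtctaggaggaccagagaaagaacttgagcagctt

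Windows of 300 bases (250 before and 50 after the start) were found for 6 of the 9 ligand genes, with 2 starts for Egf, and for none of Ereg, Hbegf and Nrg1. They were searched on both strands for 3 motifs, none of which overlapped another in a ligand window. The cAMP response element TGACGTCA was found in the Areg window, starting at base -61 from the start, and in 1.79% of 32851 windows of all genes. The TEAD motif CATTCC (14.7% of all windows) and the AP-1 motif TGANTCA (7.81%) were found in 0 of the 7 ligand windows. Starts of these genes outside the 7 windows were not searched.

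**Figure D1:**
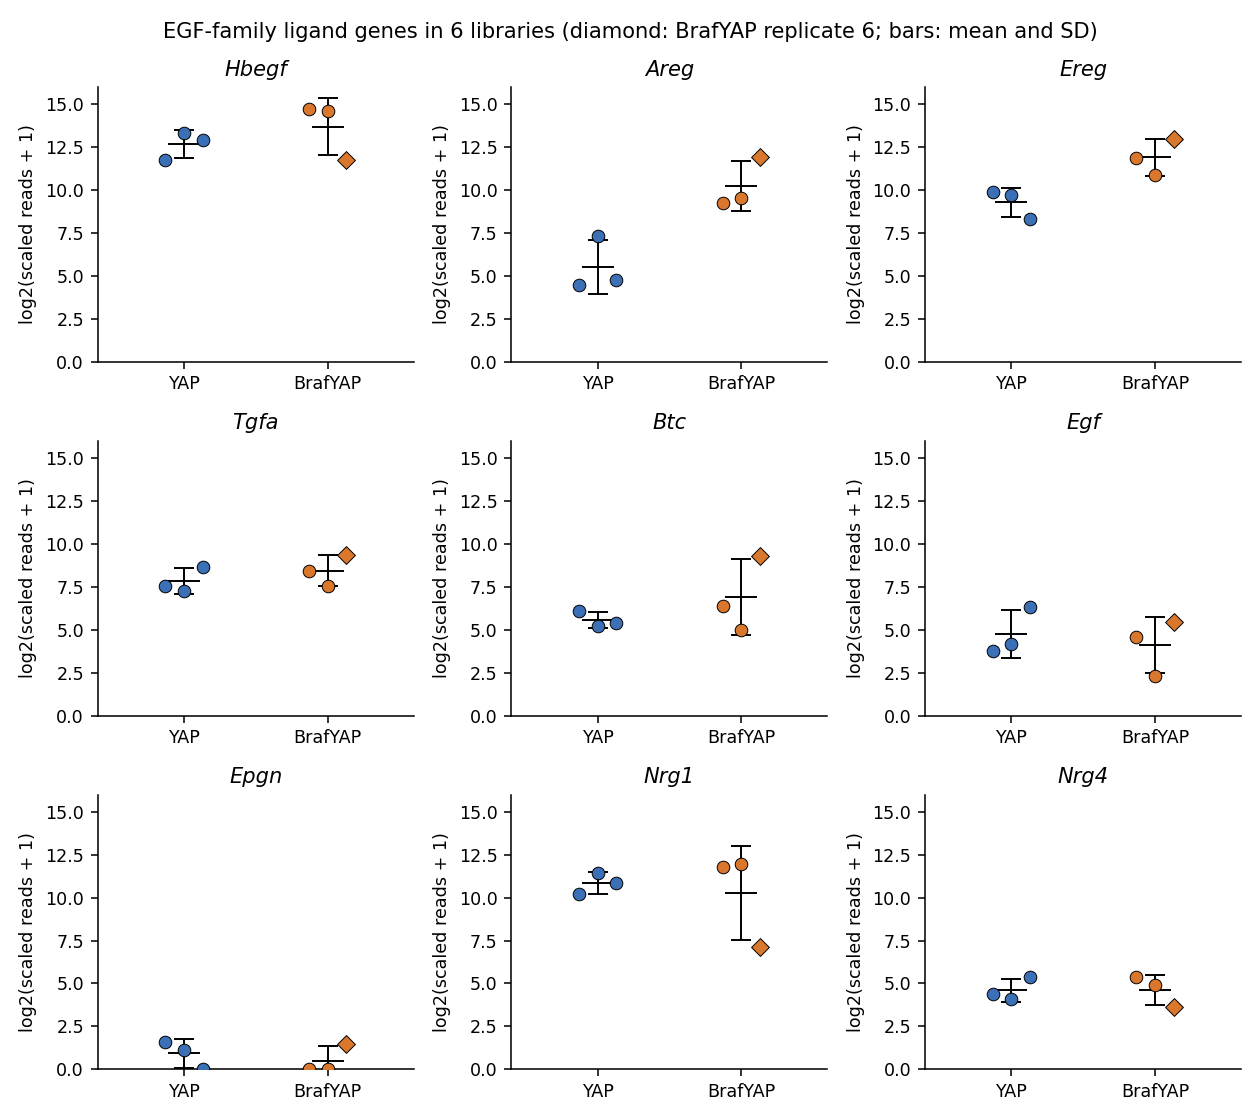
Level of each ligand gene in the 3 YAP and the 3 BrafYAP libraries, as log2(scaled reads + 1) on a common vertical axis from 0. Points are libraries, the diamond is BrafYAP replicate 6, and bars are the group mean and SD. The groups separate for Areg and Ereg, and BrafYAP replicate 6 lies below every other library for Nrg1 and Nrg4.

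None of the 8 ligand genes with enough reads to test (a mean of at least 10 scaled reads) differed between BrafYAP and YAP at a limma adjusted p-value under 0.05, a threshold that 0 of all 16834 genes tested passed (0%). At an unadjusted p-value under 0.05, 2 of the 8 ligands, Areg and Ereg, were higher in BrafYAP, where 9.68% of all genes were higher and 20.2% differed either way. The same 2 ligands were the ones whose groups did not overlap, with each BrafYAP library above each YAP library, as for 11.6% of all genes (28.7% in either direction). The median log2 fold change of the 8 ligands was 0.83 (0.77 without BrafYAP replicate 6), beside -0.12 over all genes tested. With array weights, an alternative fit that weights each library by its spread, 3 of the 8 passed the adjusted threshold (Hbegf, Areg and Ereg), as did 27.6% of all genes. The weights were uneven, at 0.39, 0.53 and 4.81 in YAP replicates 1, 2 and 3 and 2.70, 1.66 and 0.22 in BrafYAP replicates 1, 2 and 6. With 3 libraries against 3, an exact permutation test of 1 gene cannot go below 0.1.

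Areg encodes amphiregulin, an EGFR ligand of epithelia. It had 21.6, 161 and 25.7 scaled reads in YAP replicates 1, 2 and 3 and 614, 737 and 3953 in BrafYAP replicates 1, 2 and 6. The lowest BrafYAP library was thus above the highest YAP library, and replicate 6 was 5.36 to 6.44 times above the other BrafYAP libraries. The log2 fold change was 4.72 (SE 0.97; limma adjusted p = 0.0904, unadjusted p = 0.0016; exact permutation p = 0.1), and it was 3.87 without BrafYAP replicate 6. On log2(deposited TPM + 1), where the added 1 weighs more on the small span-divided values, it was 2.23 (SE 0.59). Within the YAP group the highest library was 7.48 times the lowest, a spread set by replicate 2.

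Ereg encodes epiregulin, which binds EGFR with low affinity. Its scaled reads were 939.6, 835 and 323 in YAP replicates 1, 2 and 3 and 3739.9, 1865 and 8234 in BrafYAP replicates 1, 2 and 6. The groups did not overlap, and replicate 6 was again the highest BrafYAP library, 2.2 to 4.42 times above the others. The log2 fold change was 2.61 (SE 0.63; limma adjusted p = 0.108, unadjusted p = 0.0041; exact permutation p = 0.1), 2.06 without replicate 6, and 1.87 on log2(deposited TPM + 1). The order of the YAP libraries was not that of Areg, as YAP replicate 2 was highest for Areg and replicate 1 for Ereg. An antisense transcript that overlaps Ereg, Gm19610, had at most 25.2 scaled reads.

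Hbegf, on chromosome 18, encodes HB-EGF, the ligand that also serves as the receptor of diphtheria toxin in humans. It had 3471, 10252 and 7807 scaled reads in YAP replicates 1, 2 and 3 and 27201, 25344 and 3495 in BrafYAP replicates 1, 2 and 6. BrafYAP replicates 1 and 2 were above every YAP library, whereas replicate 6 was at the level of the lowest YAP library and 7.25 to 7.78 times below its own group. The log2 fold change was 1.04 (SE 0.83; limma adjusted p = 0.505) and became 2.01 (SE 0.48; limma adjusted p = 0.0974) without replicate 6, a call that did not change.

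Btc, Tgfa and Egf overlapped between the groups. Btc, which encodes betacellulin, had 66.8, 36.7 and 41.2 scaled reads in YAP replicates 1, 2 and 3 and 84.2, 30.6 and 629 in BrafYAP replicates 1, 2 and 6. Replicate 6 stood out, at 7.47 to 20.5 times the other BrafYAP libraries, and the log2 fold change, 1.32 over all libraries (SE 1.03; limma adjusted p = 0.489), was 0.12 without it. Tgfa (chr6:86195223-86275719), the gene for TGF-alpha, had 188, 150.4 and 409.9 scaled reads in YAP and 348, 185 and 655 in BrafYAP libraries, in the same order of replicates. Its log2 fold change was 0.62 (SE 0.58; limma adjusted p = 0.567) and 0.16 without replicate 6. Egf itself (chr3:129677565-129755316) was low, with 12.3, 17.1 and 80.2 scaled reads in YAP and 23.3, 3.92 and 42.5 in BrafYAP libraries. YAP replicate 3 was the highest of the 6 libraries for Egf, and the log2 fold change was -0.64 (SE 1.05; limma adjusted p = 0.756). Epgn was below the minimum for a test, at 2, 1 and 0 estimated reads in YAP and 0, 0 and 2 in BrafYAP libraries, so no difference was detectable at this depth.

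The chromosome 5 neighbors differed among themselves. Areg and Ereg separated the groups, Btc was high in BrafYAP replicate 6 but lowest of all in BrafYAP replicate 2, and Epgn, upstream of Ereg, was at or near 0 in every library. BrafYAP replicate 6 was the highest library for Areg, Ereg, Btc and Tgfa, and it was the lowest for Nrg1 and Nrg4. The closest of the ligand pairs in pattern was Egf and Tgfa, with a root mean square difference of 0.89 between their centered log2 values over the 6 libraries. Areg and Ereg differed by 1.45 on this measure, Hbegf and Nrg1 by 1.02, and Areg and Nrg1, the least alike, by 3.65.

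The neuregulins gave another pattern. Nrg1 (chr8:31814551-32884029), which encodes the ligand of ERBB3 and ERBB4, had 1172, 2810.5 and 1870.2 scaled reads in YAP replicates 1, 2 and 3 and 3533, 3988 and 137 in BrafYAP replicates 1, 2 and 6. BrafYAP replicates 1 and 2 were above every YAP library, and replicate 6 was 25.8 to 29.2 times below them and 8.57 times below the lowest YAP library. The log2 fold change over all libraries was -0.56 (SE 1.23; limma adjusted p = 0.821), and without replicate 6 its direction turned, to 1.03 (SE 0.41; limma adjusted p = 0.221). The direction for Nrg1 thus rested on 1 library. Without that library, Hbegf, Areg, Ereg and Nrg1 were the ligands whose BrafYAP values were all above the YAP values, as for 19% of all genes.

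Nrg4 (chr9:55220222-55326844), which encodes a ligand of ERBB4 known from brown fat, had 19.7, 16.1 and 40.5 scaled reads in YAP and 40.2, 28.5 and 11.6 in BrafYAP libraries. The groups overlapped (log2 fold change 0.02, SE 0.68; limma adjusted p = 0.990). Nrg4 overlaps Fbxo22 on the opposite strand, which had up to 3033 scaled reads, and since the counting strand was not stated, reads of Fbxo22 cannot be told apart from those of Nrg4. The remaining neuregulin genes, Nrg2 and Nrg3, were listed at 0 reads in all 6 libraries.

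**Figure D2:**
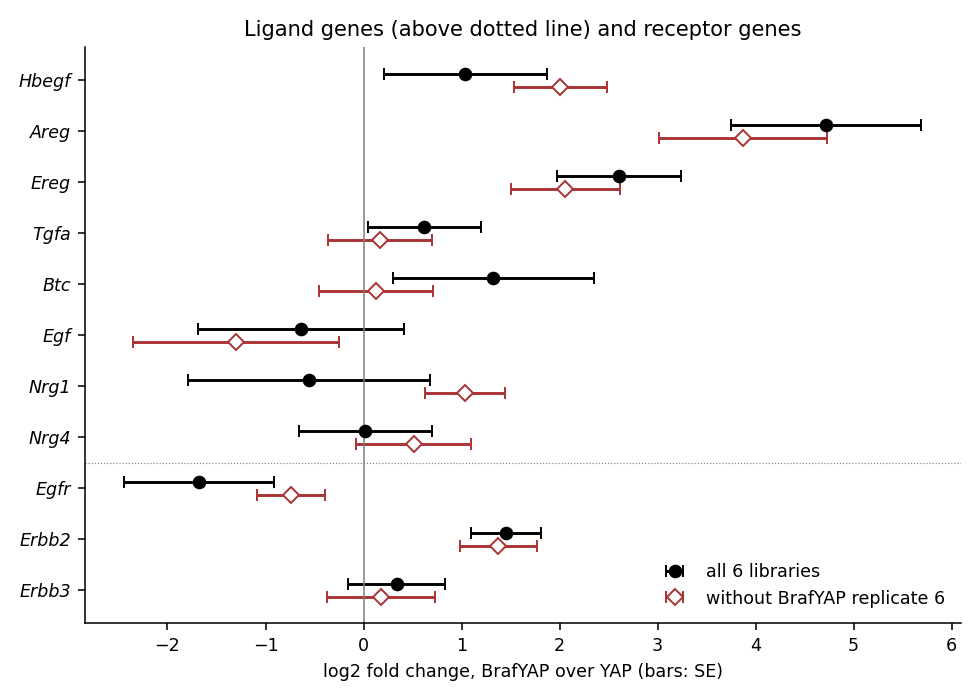
Log2 fold change (BrafYAP over YAP, on log2(scaled reads + 1)) of the 8 ligand genes tested and of 3 receptor genes, with all 6 libraries (filled) and without BrafYAP replicate 6 (open). Bars are standard errors from limma. The values for Egf and Egfr lie below 0 in either fit, that for Nrg1 crosses from -0.56 to 1.03, and the others lie above 0. Of the others, Areg, Ereg, Hbegf and Erbb2 lie above 0 by more than their SE in either fit.

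Levels were then compared between ligands on TPM recomputed with the exonic length. Hbegf was the most abundant ligand transcript by mean in either group, with a mean ± SD of 128 ± 59.5 TPM in YAP and 348 ± 246 TPM in BrafYAP (n = 3 each). In YAP libraries it was followed by Nrg1 (16.2 ± 6.43), Ereg (14.5 ± 6.54), Areg (4.83 ± 5.39), Tgfa (3.38 ± 2.05) and Btc (0.924 ± 0.309), with Nrg4, Egf and Epgn below. The ranges of Hbegf and Nrg1, of Tgfa and Btc and of Btc and Nrg4 did not overlap, whereas the other neighbors in this order were within their spread. In BrafYAP libraries Areg (129.6 ± 138) and Ereg (99.6 ± 69.7) came before Nrg1 (22.3 ± 18.4), Tgfa (5.44 ± 3.22) and Btc (4.87 ± 6.48). There the ranges were apart for Ereg and Nrg1 and for Btc and Nrg4 only, among neighbors in the order.

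The level of all 9 ligands together was 96.7, 230 and 179.8 TPM in YAP replicates 1, 2 and 3 and 665, 614 and 552 in BrafYAP replicates 1, 2 and 6. Every BrafYAP library was above every YAP library, but the make-up differed within the BrafYAP group. The separation was not particular to the ligands. Of the lists described below, summed levels of adaptors (124 to 278 in YAP, 309 to 319 in BrafYAP), negative regulators, ERK-output and immediate-early genes were also apart. Those of receptors, release and trafficking genes and YAP targets overlapped. Hbegf made 75.4% and 77.9% of the ligand transcripts in BrafYAP replicates 1 and 2, within the 63.8 to 81.5% of the YAP libraries, but 11.6% in BrafYAP replicate 6. In that library Areg made 52.2% and Ereg 32%, and Areg was 4.50 times Hbegf. Areg took 6.77% and 9.02% in BrafYAP replicates 1 and 2 and 1.07 to 4.81% in YAP libraries. Neuregulins took 9.46 to 10.3% of the ligand transcripts in YAP libraries, 4.66% and 5.80% in BrafYAP replicates 1 and 2, and 0.243% in replicate 6. These shares are relative, so a share of 1 ligand moves with the level of the others.

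**Figure D3:**
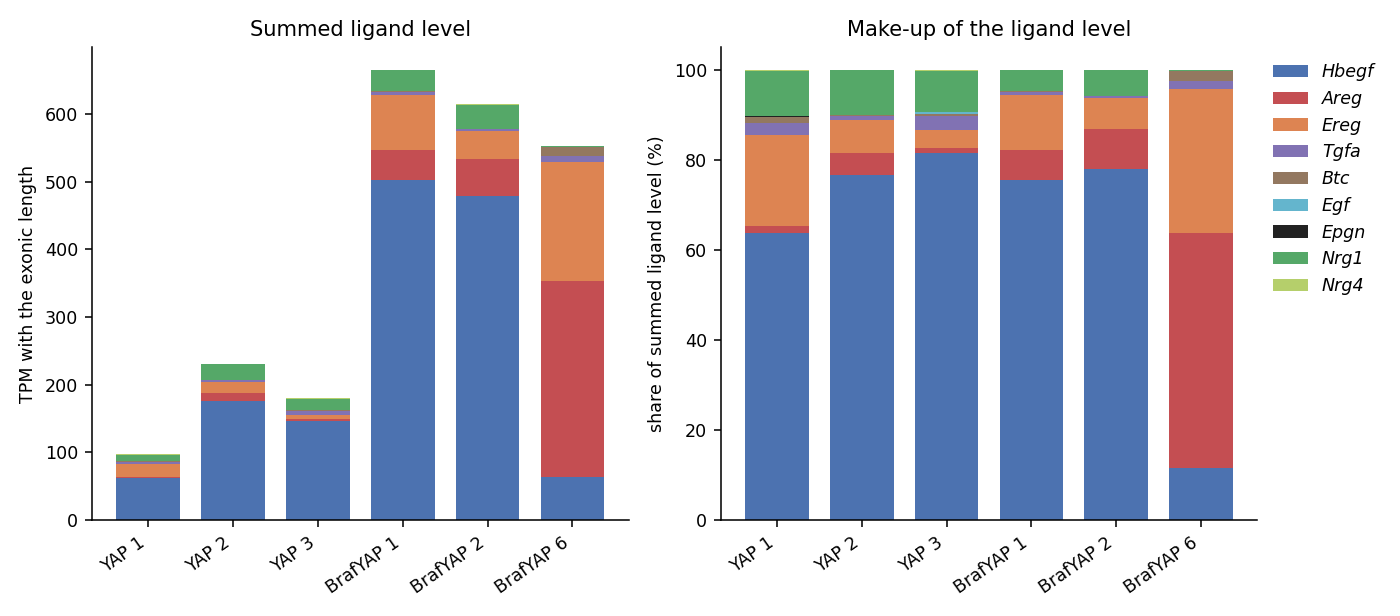
Summed level of the 9 ligand genes in each library (left, TPM with the exonic length) and the percent taken by each ligand (right). Hbegf is the main part in 5 libraries, and Areg and Ereg together take 84.2% in BrafYAP replicate 6.

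The receptors that these ligands bind were measured in the same libraries. Egfr (chr11:16752203-16918158) had 2021, 2004 and 3048 scaled reads in YAP replicates 1, 2 and 3 and 1113, 1729 and 196 in BrafYAP replicates 1, 2 and 6. Every BrafYAP library was below every YAP library, as for 17.1% of all genes, and replicate 6, with the most Areg and Ereg, had the least Egfr. The log2 fold change was -1.67 (SE 0.76; limma adjusted p = 0.272), and -0.74 without replicate 6, where the groups were still apart, as for 24.8% of all genes. Erbb2 (chr11:98412470-98437716) had 714, 1170.4 and 1384 scaled reads in YAP and 2169, 3414 and 3217 in BrafYAP libraries. The groups were apart and replicate 6 was within its own group, and the log2 fold change came to 1.45 (SE 0.35; limma adjusted p = 0.108, unadjusted p = 0.0042). Erbb2 overlaps Mien1 on the opposite strand, which had up to 2826 scaled reads.

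Erbb3, the neuregulin receptor, had 1754, 849 and 3198 scaled reads in YAP and 2114, 1719 and 2646 in BrafYAP libraries, and the groups overlapped (log2 fold change 0.34, SE 0.49; limma adjusted p = 0.723). Erbb4, the receptor of Nrg4, was below the minimum for a test, at 18, 2 and 19 estimated reads in YAP and 0, 0 and 3 in BrafYAP libraries. On TPM with the exonic length, Egfr and Erbb2 stood at 18.2 ± 5.43 and 18.2 ± 6.18 in YAP libraries (SD, n = 3), and at 8.08 ± 6.22 and 50.5 ± 11.9 in BrafYAP libraries.

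Of 19 genes for ligand release and trafficking (metalloproteases, furin-type convertases and inactive rhomboids), 2 were higher and 2 lower in BrafYAP at an unadjusted p-value under 0.05, beside 9.68% of all genes higher and 10.5% lower. This share is near that of all genes and is no result about the list. The median log2 fold change was 0.37. Adam17, the main sheddase of TGF-alpha, amphiregulin and HB-EGF precursors, had 3879, 3742 and 2369 scaled reads in YAP replicates 1, 2 and 3 and 1638, 1559.8 and 1744 in BrafYAP replicates 1, 2 and 6. The BrafYAP libraries were below and close to each other, and the log2 fold change was -0.98 (SE 0.29; limma adjusted p = 0.143). Adam12, also able to cleave HB-EGF, gave -2.17 (SE 0.69; limma adjusted p = 0.156), and the convertase Pcsk6 gave 1.73 (SE 0.49; limma adjusted p = 0.130), each without overlap between the groups. None of the 19 passed the adjusted threshold, nor did any gene of the other lists below.

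Among 14 negative regulators of ERBB signaling, 2 were higher and 0 lower at an unadjusted p-value under 0.05 (median log2 fold change 0.42), beside 9.68% and 10.5% of all genes. The groups did not overlap for 6 that were higher and 2 that were lower, beside 11.6% and 17.1% of all genes. The 2 with an unadjusted p-value under 0.05 were Errfi1, a feedback inhibitor that binds the EGFR kinase, and Spred2, which restrains the RAS to ERK step. Errfi1 had 1518, 2039 and 1515 scaled reads in YAP replicates 1, 2 and 3 and 6830.0, 5831 and 9394 in BrafYAP replicates 1, 2 and 6. Its groups were far apart, and the log2 fold change was 2.11 (SE 0.30; limma adjusted p = 0.0590), passing the threshold without replicate 6 (1.91; limma adjusted p = 0.0456), as 0.856% of all genes did. Spred2 gave 1.99 (SE 0.30; limma adjusted p = 0.0666). Of 12 adaptors such as Grb2 and Shc1, 0 had an unadjusted p-value under 0.05, beside 20.2% of all genes either way, with a median log2 fold change of 0.24.

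Of 11 transcripts that rise with ERK signaling, 9 were higher and 0 lower at an unadjusted p-value under 0.05, beside 9.68% and 10.5% of all genes. For 9 of them each BrafYAP library was above each YAP library, beside 11.6% of all genes, and the median log2 fold change was 2.12 (1.85 without BrafYAP replicate 6). Dusp4, an ERK phosphatase, had 21.6, 95.4 and 54.6 scaled reads in YAP replicates 1, 2 and 3 and 808, 1510.3 and 2950.0 in BrafYAP replicates 1, 2 and 6. It followed the order of libraries that Areg had within the BrafYAP group, and its log2 fold change was 4.95 (SE 0.67; limma adjusted p = 0.0568, and 0.0442 without replicate 6). The transcription factor Etv5 gave 2.77 (SE 0.54; limma adjusted p = 0.0882), and the feedback inhibitor Spry4 gave 2.59 (SE 0.47; limma adjusted p = 0.0818). Of direct YAP targets, 9 were measured among 11 listed, and Ccn1 and Ccn2 were the ones without a match in the data. Of the 9, 0 had an unadjusted p-value under 0.05, beside 20.2% of all genes either way. With so few genes this is no result about the list. For 1 of the 9 each BrafYAP library was below each YAP library, beside 17.1% of all genes. The median log2 fold change of these targets turned from -0.52 to 0.52 without BrafYAP replicate 6, the library with the least Yap1 and Nrg1.

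Many of the immediate-early and heat-shock transcripts, which tissue digestion can raise, were also higher in BrafYAP by the unadjusted test, but Fos, Fosb, Atf3, Ier3 and Nr4a1 overlapped between the groups. Of 13 such genes 8 were higher and 0 lower at an unadjusted p-value under 0.05, beside 9.68% and 10.5% of all genes, with a median log2 fold change of 1.66 (1.43 without replicate 6). Their summed level with the exonic length was 6140 to 11249 TPM in YAP and 17348 to 23729 TPM in BrafYAP libraries. Within the YAP group Hspa1a was 949, 24171 and 4047 scaled reads in replicates 1, 2 and 3, and replicate 2 was also the highest YAP library for Areg, Hbegf and Nrg1, though not for the other ligands tested. The log2 fold change of Hspa1a was 3.32 (SE 1.07; limma adjusted p = 0.161), that of Hspa1b 3.25 (SE 0.98; limma adjusted p = 0.144) and that of Ier2 3.06 (SE 1.05; limma adjusted p = 0.178). The part of this response in the levels of Areg, Ereg and Hbegf was not tested.

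**Figure D4:**
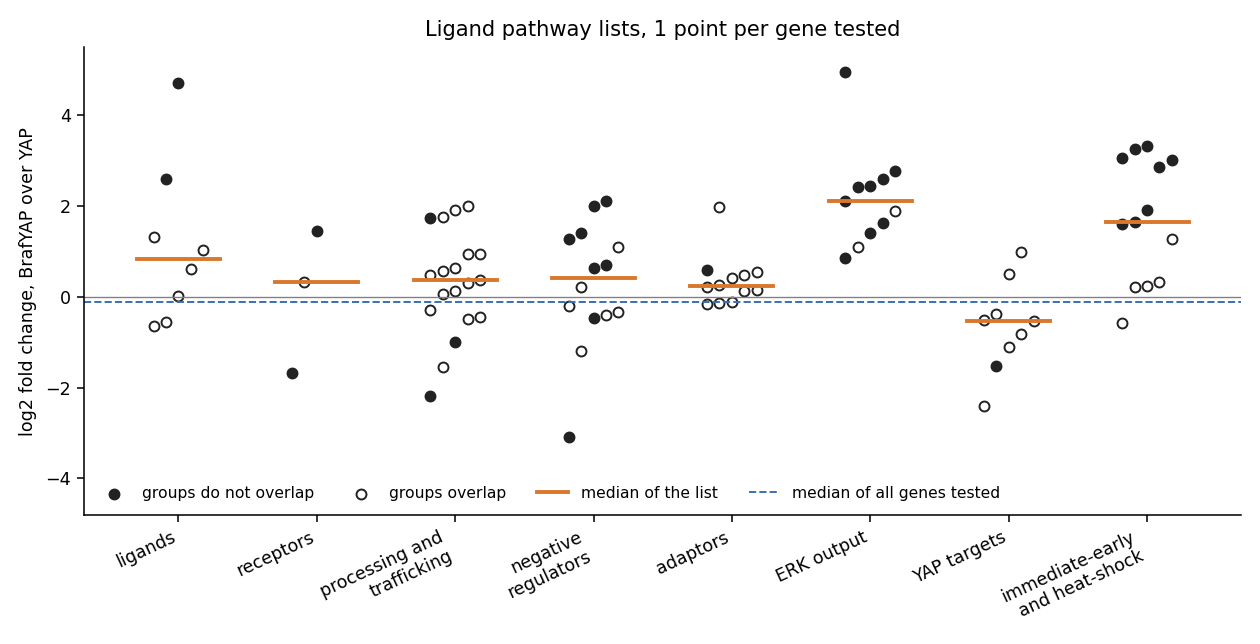
Log2 fold change (BrafYAP over YAP) of each gene tested in 8 lists, 1 point per gene, filled where the 3 libraries of each group do not overlap. Orange bars are list medians (0.83 for ligands, 2.12 for ERK output, -0.52 for YAP targets) and the dashed line is the median of all genes tested, -0.12.

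Other genes were ranked by how closely their pattern over the 6 libraries followed that of Areg or Nrg1, among 11153 genes with a mean of at least 100 scaled reads, leaving out unnamed predicted genes. Nearest to Areg were Vash2, Sdc1 and Rgcc, with root mean square differences of 0.32, 0.49 and 0.52 on the centered log2 scale. Vash2 had 14.4, 94.2 and 29.9 scaled reads in YAP replicates 1, 2 and 3 and 548, 564 and 3772 in BrafYAP replicates 1, 2 and 6. It shared with Areg the high values of YAP replicate 2 and BrafYAP replicate 6 within their groups. Nearest to Nrg1 were Fermt1, Amotl2 and Ltbp2, at 0.26, 0.27 and 0.32. Fermt1 had 1623, 3477 and 3010.4 scaled reads in YAP and 4547, 5522 and 288 in BrafYAP libraries. Amotl2, which is also 1 of the listed YAP targets, had 6075, 25673 and 15962 in YAP and 25069, 28355 and 1181 in BrafYAP libraries. All of them had their lowest value in BrafYAP replicate 6, as Nrg1 did.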

How the data were processed

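RNA from about 20000 Kate-positive cells per library was amplified by the SMART-Seq v4 kit with 12 cycles, prepared with 8 further PCR cycles, and sequenced as paired 50-nt reads. Per the labels, samples were grouped by their titles. The authors made fastq files with bcl2fastq 2.2, aligned reads to mm10 with STAR 2.6.1d and obtained gene values in Partek by its E/M method with Ensembl release 95. They deposited 1 table of TPM with 0.0001 added (35027 genes, 0 columns without a sample). Each column sums to 181218. Multiplied by genomic span (GENCODE M21), 71.7 to 76.0% of values under 200 reads were within 0.05 of a whole multiple of 1 step per library, against 22.3 to 24.9% with the exonic length, so the TPM had been divided by the span, introns included. Estimated reads are (value - 0.0001) × span / step, for 34645 genes at 1 locus. Scaled reads use 1 common step, and a gene's ratios between libraries are those deposited. The E/M model can split reads between genes, and the counting strand is not given in the sources used here.

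Because TPM differ from counts, no count model was used as the main test, and voom on the estimated reads was an alternative only. Groups were compared with limma 3.58.1 in R 4.3.3 (lmFit, eBayes with trend; two-sided) on log2(scaled reads + 1), which understates the change of genes with few reads, for the 16834 genes whose mean reached 10. P-values were adjusted over all of them by Benjamini-Hochberg, with a threshold of 0.05. No covariate entered. The step was tested on simulated data. Read numbers cover counting error only, as there were no molecular identifiers. Of the pathway lists, at most 3 genes each were named, those with the largest change among genes with an unadjusted p-value under 0.05 and no overlap between groups. The ligands, lists and tests were chosen with earlier results of these data known. 1 thyroid marker is not reported here. The RefSeq tables used here held no protein sequences, so the planned comparison of EGF-like modules was not run. Alternatives were other pseudocounts, filters, lengths, normalizations and weights, voom, a replicate block, and each library left out in turn.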

Additional observations from a re-analysis of the deposited data

How the results depend on the processing

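No gene passed the adjusted threshold with limma, and 3404 had an unadjusted p-value under 0.05. Under the alternatives, 45 genes passed with a pseudocount of 10, 18 on the deposited TPM, 62 on TPM with the exonic length, 63 after quantile normalization, 20 without a trend and 4650 (27.6%) with array weights, and 0 to 142 when 1 library was left out (3 without YAP replicate 2, 142 without BrafYAP replicate 6). 0 genes passed with a pseudocount of 0.1, a minimum of 100, no filter, median-ratio scaling and voom, where the unadjusted p-value was under 0.05 for 2599 to 4053 genes. Array weights took 3 of the 8 ligands past the threshold, at log2 fold changes of 1.66 for Hbegf, 4.52 for Areg and 2.99 for Ereg, and every other alternative took 0. The cause was not tested. Array weights turned Tgfa to -0.31, Nrg1 to 0.75, Nrg4 to -0.078 and Erbb3 to -0.45, and voom turned Nrg4 to -0.0050. With 1 library left out, log2 fold changes ran from -1.30 to 0.27 for Egf, -1.39 to 1.03 for Nrg1, -0.35 to 0.51 for Nrg4 and -0.16 to 0.80 for Erbb3, and from 3.87 to 5.63 for Areg. On the deposited TPM, where a pseudocount of 1 weighs more on small values, log2 fold changes were smaller, at 2.23 for Areg, 1.87 for Ereg, 2.17 for Dusp4 and 1.10 for Etv5. Over 22 named genes and 381 values under an alternative, 344 kept direction and call, 23 passed the threshold anew and 14 changed direction. Replicates 1 and 2 share numbers between the groups, and their deviations from the group mean had an r of -0.032 and 0.047 over 16834 genes. BrafYAP replicate 6 moves the mean of its group, so this r cannot tell whether the replicates were paired. In a fit with a replicate block, YAP replicate 3 and BrafYAP replicate 6 had no partner, so the group difference came from replicates 1 and 2 only. With this block 0 genes passed, 2532 had an unadjusted p-value under 0.05, and Nrg1 turned to 1.05. That turn is not separate from the one without BrafYAP replicate 6. Median-ratio scaling moved the median of all genes from -0.12 to 0.01. With the genomic span in place of the exonic length, 3 of the 9 ligands kept their rank by level in YAP and 3 in BrafYAP, since the span takes in introns. Depth limits Epgn, Erbb4, Egf and Nrg4, at a few to 80.2 scaled reads.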
